A study of Mus musculus with 28 samples.

Results

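Blockade of PD1 was compared with an isotype control antibody in co-cultures of the mouse tumour line MC38 with OT1 T cells, in 6 of the 28 samples of the series. The 3 anti-PD1 libraries and the 3 isotype libraries were chosen by the column names and descriptions that tie them to MC38 with OT1 T cells, and they were fitted alone. MC38 is a colon adenocarcinoma line from a C57BL/6 mouse. OT1 cells are CD8 T cells with a transgenic receptor for an ovalbumin peptide. In the anti-PD1 group the T cells had received an antibody against PD1, in the isotype group an IgG control, and contact with the tumour cells lasted 6 hours in both. A further group, 3 libraries of MC38 alone, is given as a baseline of levels. Lists of target genes were also taken from MC38 cells in vitro, untreated or given TNF, interferon gamma (IFNG) or both for 6 hours. Each of these in vitro groups had fewer than 3 libraries, and no time is given for the untreated cells. How the MC38 cells present the OT1 antigen is not said in the sources used here. The series also holds separate libraries labelled OT1 T cells with anti-PD1 and with isotype, which were not used here. The way and the completeness of any removal of T cells from MC38 before RNA was extracted are not said. T cell genes below are therefore read in libraries labelled MC38. All the MC38 groups are the same cell line without a named clone or genotype.

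PD1, encoded by Pdcd1, is an inhibitory receptor on activated T cells, and its ligand PD-L1, encoded by Cd274, is carried by tumour and myeloid cells. Ligand binding dampens signalling from the T cell receptor, and antibodies that block the contact are used to release that brake. A T cell that recognises its target secretes interferon gamma and TNF. Interferon gamma acts on the tumour cell through JAK kinases and IRF1, which raise antigen presentation genes, chemokines and Cd274, and TNF acts through NF-kB and through death receptor complexes.

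Values were log2 CPM (the counts of a gene per fixed total of counts, on the log2 scale) from the 3′ ends of transcripts, so levels do not scale with transcript length. They had been quantile-normalized, as read from the values, so summed levels in CPM below are sums of normalized values. The stepped low values implied about 6750000, 5760000 and 10960000 reads in the anti-PD1 libraries, 9530000, 8970000 and 7850000 in the isotype libraries, and 7480000, 7620000 and 3730000 in MC38 alone. The third anti-PD1 library is titled and annotated as untreated and was placed by its description, and the column of the second isotype library reads OT2 in place of OT1. These libraries lay at opposite ends of the first principal component (−19.0 for the third anti-PD1 and 22.1 for the second isotype library, 28.4% of the variance), which did not separate the antibodies. Counts below are therefore also given without both, a check chosen after seeing the data. On the second principal component (22.3% of the variance) the groups did not overlap. Its values were 5.4, 22.9 and −3.7 with anti-PD1 and −6.3, −10.2 and −8.0 with isotype. Libraries correlated about as well across groups as within them. Each isotype library and the second anti-PD1 library did slightly better within its own group, the other anti-PD1 libraries slightly worse. Mean r over 8115 genes was 0.967 to 0.971 within the anti-PD1 group and 0.967 to 0.974 within the isotype group, against 0.965 to 0.972 between the groups. The labels do not say that replicates were separate cultures, so p-values measure the spread between these libraries, which may be technical.

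T cell transcripts were present in both co-cultures at similar levels. Of 30 T cell identity genes 24 were in the table, and their summed level was 67.5, 77.2 and 84.1 CPM with anti-PD1, 78.8, 86.7 and 86.7 CPM with isotype, and 11.0, 14.5 and 82.9 CPM in MC38 alone. The third library of MC38 alone thus carried as much T cell RNA as the co-cultures, and its levels are named where they matter. In these bulk samples fewer T cells and less RNA per T cell cannot be told apart. The summed level of 14 T cell effector and cytokine genes was 1414, 1365 and 1284 CPM with anti-PD1, 1370, 1507 and 1464 CPM with isotype, and 301, 272 and 292 CPM in MC38 alone, and the co-culture groups overlapped. In the first and second libraries of MC38 alone, 9 and 10 of these 14 genes lay at the lowest 3 count steps. Their sums came from the other members, so this sum does not measure T cell RNA alone. Of the other cell types, 0 of 10 B cell, 1 of 6 natural killer cell and 6 of 19 myeloid markers were in the table, the myeloid ones with summed levels of 14.1 to 21.1 CPM with anti-PD1 and 14.8 to 45.3 CPM with isotype. The tumour list was carried by Vim and Lgals1, and 8 of its 14 genes were in the table, with summed levels of 7105 to 7606 CPM with anti-PD1 and 6902 to 8242 CPM with isotype. The part of these differences in the results below was not tested.

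**Figure D1:**
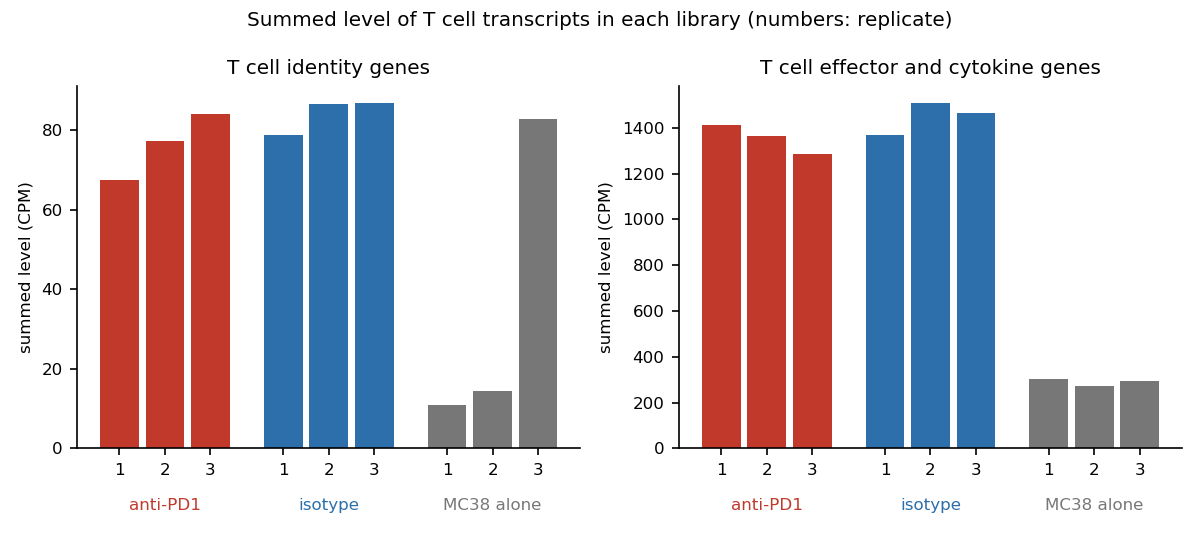
Summed level (CPM, y axis from 0) of 24 T cell identity genes and of 14 T cell effector and cytokine genes in each library, with anti-PD1 left, isotype in the middle and MC38 alone right. The anti-PD1 bars of the identity genes (67.5 to 84.1 CPM) overlap with the isotype bars (78.8 to 86.7 CPM), and the third library of MC38 alone stands at 82.9 CPM. The effector sum includes members that were also expressed in MC38 alone.

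No gene passed the test between anti-PD1 and isotype. With limma and Benjamini-Hochberg adjustment at 0.05, 0 of 12272 genes were higher (0.0%) and 0 were lower (0.0%). At an unadjusted p under 0.05, 420 genes were higher with anti-PD1 (3.42%) and 296 lower (2.41%), and the 296 became 186 without the third isotype library. Without both libraries of doubtful label these counts were 295 and 317. The libraries of the groups did not overlap for 764 genes higher with anti-PD1 (6.23%) and 724 lower (5.9%). The same test with other settings called between 0 and 8 genes higher and between 0 and 5 lower, nearly all of them pseudogenes. Precision was such that the 95% confidence interval of the log2 fold had a median half-width of 0.36, or 0.30 for the 8113 genes with a mean level of at least 3 log2 CPM. Of these 8113 genes, 7814 (96.3%) had an interval within 2-fold either way. The median log2 fold over all genes was −0.01, and since the values are normalized, a shift common to most transcripts would not appear.

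The co-culture response was of similar size under both antibodies. Against MC38 alone, the mean of the 6 co-culture libraries was higher for 1278 of 12707 genes (10.1%) and lower for 1294 (10.2%), at an adjusted p under 0.05. Of the genes tested between the antibodies, 260 were higher at least 4-fold in co-culture, with a median log2 fold of 2.99. The same 260 genes had a median log2 fold of −0.003 between anti-PD1 and isotype, with a median absolute value of 0.18 and 80% of values between −0.32 and 0.48. In 226 of the 260 the interval between antibodies stayed within 0.5 times the gene's own co-culture log2 fold on either side of 0. Of the 260, 23 were higher with anti-PD1 and 9 lower at an unadjusted p under 0.05, beside 3.42% and 2.41% of all genes tested. The share higher was thus above that of all genes. The groups did not overlap for 24 and 13 in these directions, beside 6.23% and 5.9% of all genes. Both comparisons use the same 6 libraries. Without the third library of MC38 alone the list held 327 genes, of which 243 were shared, and the median log2 fold between the antibodies was −0.002.

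Cd274, the gene of the PD1 ligand, was higher in each anti-PD1 library than in any isotype library. Its level was 6.99, 7.23 and 7.19 log2 CPM with anti-PD1, against 6.73, 6.39 and 6.55 log2 CPM with isotype and 3.71, 3.51 and 3.99 log2 CPM in MC38 alone. The groups did not overlap, and the third, doubtfully labelled anti-PD1 library lay between the others. The log2 fold was 0.58 ± 0.11 (SE, 1.49-fold, 95% interval 1.24- to 1.79-fold), which ranked 8 of 12272 genes by unadjusted p (0.000867) and did not pass adjustment in limma (adjusted p = 0.819). Over the alternative settings the log2 fold ran from 0.47 to 0.67 and the adjusted p from 0.361 to 1.000. Of the 7 checkpoint ligands tested 3 were above 0 and 4 below, beside 47.7% above and 52.3% below among all genes. Cd274 was the 1 with an unadjusted p under 0.05, beside 3.42% higher and 2.41% lower among all genes. Cd47, the signal against phagocytosis, stood at −0.03 ± 0.11 and Lgals9, which encodes galectin-9, at −0.27 ± 0.18. Pdcd1 itself lay near the lowest counts, at 0.26, 0.06 and 0.96 log2 CPM with anti-PD1 and 0.49, 0.49 and −1.60 log2 CPM with isotype, so its log2 fold of 0.63 has an interval of −0.86 to 2.12. The ligand gene Pdcd1lg2 and the T cell receptor gene Cd3e were not analysed here.

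The promoters of Cd274, whose levels did not overlap, and of Irf1 and Cxcl10, induced genes whose levels overlapped, show the letters upstream of genes that respond to the same T cell cytokines. RefSeq sequences on GRCm38.p6 are given from 250 bases before to 50 bases after the start of the gene, in the direction of transcription, for Cd274 at chr19:29367188-29367487 (plus strand), for Irf1 at chr11:53769764-53770063 (plus strand) and for Cxcl10 at chr5:92348840-92349139 (minus strand).
Cd274: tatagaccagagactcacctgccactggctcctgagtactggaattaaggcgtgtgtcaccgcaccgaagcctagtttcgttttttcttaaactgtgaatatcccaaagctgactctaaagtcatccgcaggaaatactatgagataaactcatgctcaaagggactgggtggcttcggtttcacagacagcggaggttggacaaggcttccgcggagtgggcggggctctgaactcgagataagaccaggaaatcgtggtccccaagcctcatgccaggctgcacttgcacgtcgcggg
Irf1: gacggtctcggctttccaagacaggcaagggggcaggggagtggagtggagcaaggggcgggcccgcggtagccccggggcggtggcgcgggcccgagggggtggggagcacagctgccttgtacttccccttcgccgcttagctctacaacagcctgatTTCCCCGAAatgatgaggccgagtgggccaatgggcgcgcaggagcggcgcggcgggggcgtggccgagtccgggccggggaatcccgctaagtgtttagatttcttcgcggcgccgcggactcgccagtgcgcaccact
Cxcl10: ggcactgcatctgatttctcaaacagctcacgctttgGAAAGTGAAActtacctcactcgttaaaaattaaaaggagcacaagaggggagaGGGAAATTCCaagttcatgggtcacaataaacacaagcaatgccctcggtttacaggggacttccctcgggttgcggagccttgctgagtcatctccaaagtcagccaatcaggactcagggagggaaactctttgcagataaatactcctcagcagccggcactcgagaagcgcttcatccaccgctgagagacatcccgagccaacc
Capitals mark matches, on either strand, to the gamma-activated site motif TTCNNNGAA (GAS), the interferon regulatory factor motif, GAAA and a further GAAA with any 2 bases between them, and the NF-kB motif, GGGA and TTCC with any 2 bases between them. These occur in 8.3%, 3.44% and 1.47% of 32851 promoters of the same length, and no matches overlapped. Irf1 holds a GAS match that begins 90 bases before its start. Cxcl10 holds an interferon regulatory factor match from −213 and an NF-kB match from −159. In the Cd274 window these letters were not found, nor in the windows of Cxcl9, Lif, Birc3 and Pim1. A match or its absence is a description of these letters only.

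Genes that report interferon gamma in the tumour cells stood at similar levels under both antibodies. Cxcl9, a chemokine that draws T cells, was at 9.39, 9.06 and 9.15 log2 CPM with anti-PD1 and 9.07, 9.35 and 9.08 log2 CPM with isotype, against −1.03, 0.03 and 2.04 log2 CPM in MC38 alone. Its log2 fold was 0.03 ± 0.12 with an interval of −0.24 to 0.31, and the groups overlapped. Cxcl10, its close relative, was at 11.62, 11.47 and 11.25 log2 CPM with anti-PD1 and 11.31, 11.29 and 11.10 log2 CPM with isotype (0.22 ± 0.12, interval −0.07 to 0.50). Cxcl11, of the same chemokine family and annotated as a polymorphic pseudogene, stood at 0.08 ± 0.11.

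Several transcription factor, effector and receptor genes of the pathway likewise differed little between the antibodies. Irf1, at chr11:53770014-53778374, was at 11.64, 11.70 and 11.55 log2 CPM with anti-PD1 and 11.55, 11.43 and 11.62 log2 CPM with isotype (0.10 ± 0.10, interval −0.13 to 0.32). The GTPase genes Iigp1 and Gbp2 stood at 0.01 ± 0.09 and −0.07 ± 0.11, and the receptor chain gene Ifngr1 at −0.06 ± 0.10. Socs1, a feedback inhibitor of JAK kinases, stood at 0.27 ± 0.17. Each of these 5 intervals lay within 2-fold either way.

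As a list, 48 interferon response genes had a median log2 fold of −0.07, with 12 above and 36 below 0, beside 5856 above and 6416 below among all genes tested. At an unadjusted p under 0.05, 1 was higher, the STAT3 and JAK feedback inhibitor gene Socs3 (0.41 ± 0.13), beside 3.42% of all genes. The 3 lower ones, named after their values were seen, were Stat2 (−0.29), the oligoadenylate synthetase-like gene Oasl1 (−0.34) and Parp14 (−0.28), beside 2.41% of all genes. The 3 lower became 6 without the first anti-PD1 library and 1 without the second or the third library of either group, and without both libraries of doubtful label 0 were higher and 0 lower. Of 14 interferon-induced GTPases 4 were above and 10 below 0, with a median of −0.06, and Gbp7 was the 1 lower at an unadjusted p under 0.05 (8.73, 8.72 and 8.56 log2 CPM with anti-PD1, against 8.86, 8.92 and 8.90 log2 CPM with isotype). The largest value of that list, 0.62 for Tgtp1, rests on the first isotype library at 5.34 log2 CPM, whereas the other isotype libraries were at 7.56 and 7.63 and the anti-PD1 libraries at 7.56, 7.36 and 7.47. Without that library Tgtp1 stood at −0.14.

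Among genes of antigen presentation, Tap2 stood apart from its partner Tap1. Tap2, which pairs with Tap1 to carry peptides into the endoplasmic reticulum, was at 7.01, 7.33 and 7.02 log2 CPM with anti-PD1, against 6.65, 5.60 and 6.08 log2 CPM with isotype and 4.72, 4.32 and 4.22 log2 CPM in MC38 alone. The groups did not overlap, the isotype libraries spread over more than 1 log2 unit, and the log2 fold was 1.01 ± 0.24 (unadjusted p = 0.00239, limma adjusted p = 0.819). It was 0.75 without the second isotype library and 1.28 without the first. Tap1, its neighbour on chromosome 17, was at 8.01, 8.02 and 7.94 log2 CPM with anti-PD1 and 8.00, 8.26 and 8.07 log2 CPM with isotype (−0.12 ± 0.09). The class I heavy chain H2-K1 stood at −0.11 ± 0.08, and its groups did not overlap. It was at 9.65, 9.61 and 9.61 log2 CPM with anti-PD1, against 9.69, 9.75 and 9.76 log2 CPM with isotype. The light chain B2m stood at 0.01 ± 0.11 and the immunoproteasome subunits Psmb8 and Psmb9 at 0.07 ± 0.13 and 0.09 ± 0.11. Of 18 class I and peptide loading genes 7 were above and 11 below 0, with a median of −0.05, and 3 were higher at an unadjusted p under 0.05, namely Tap2, H2-T22 (0.24) and H2-M3 (0.81), beside 3.42% of all genes. That count was 1 without the third anti-PD1, the second isotype or the third isotype library, and 1 without both libraries of doubtful label. The 7 immunoproteasome and PA28 genes had 0 such members in either direction.

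**Figure D2:**
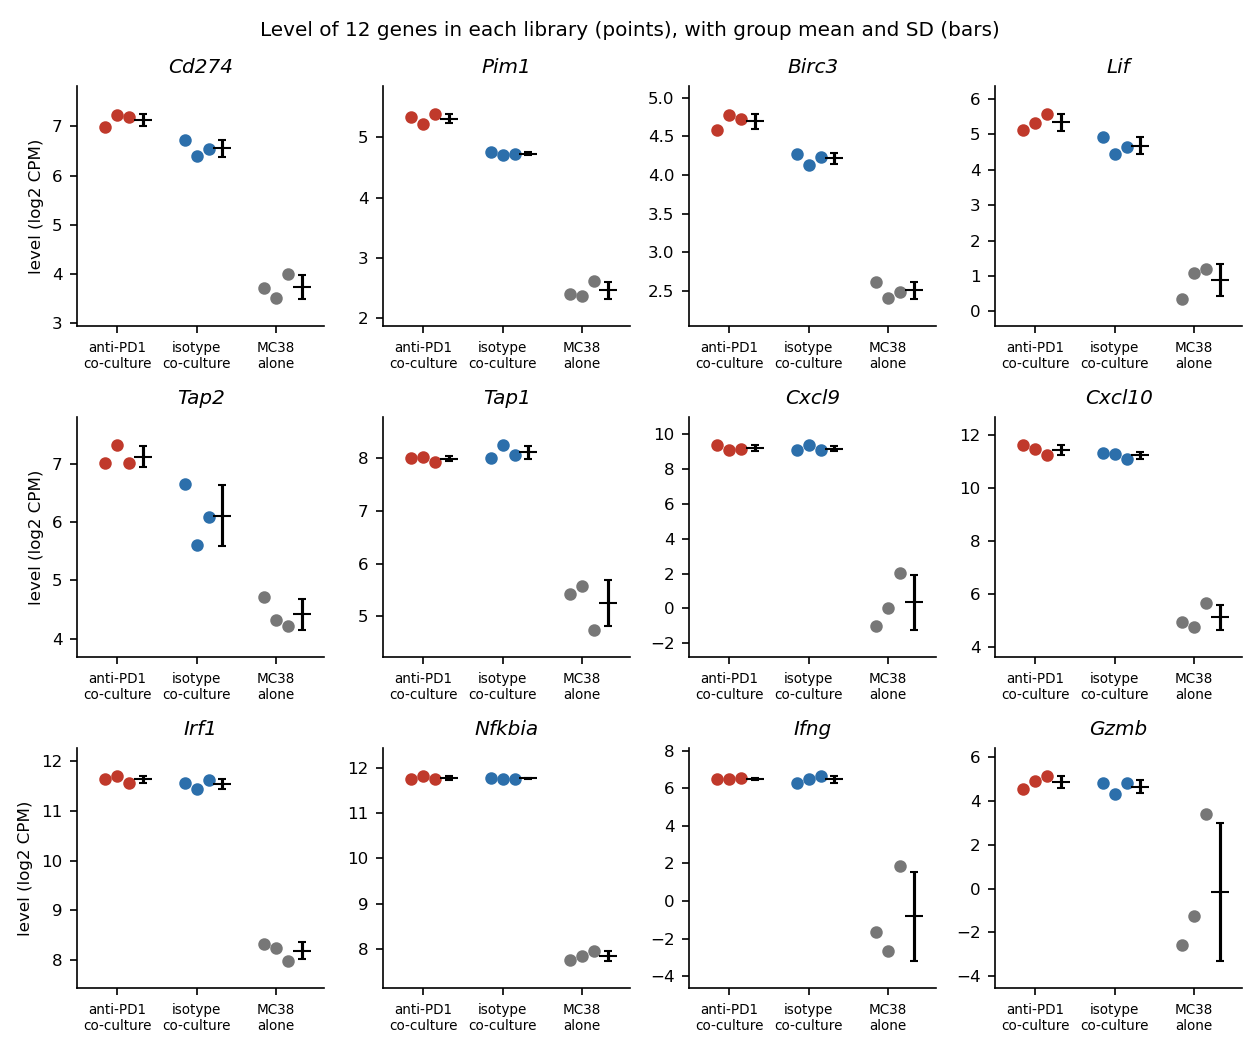
Level (log2 CPM) of 12 genes in each library, points for the 3 libraries of a group and a bar for the mean with its SD, with anti-PD1 left, isotype in the middle and MC38 alone right. Axes differ between panels and do not start at 0; Cd274, Pim1, Birc3, Lif and Tap2 do not overlap between anti-PD1 and isotype, whereas Tap1, Cxcl9, Cxcl10, Irf1, Nfkbia, Ifng and Gzmb do.

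Genes downstream of TNF and NF-kB were mixed. Nfkbia, the gene of the NF-kB inhibitor protein IkB-alpha, was at 11.75, 11.82 and 11.75 log2 CPM with anti-PD1 and 11.78, 11.75 and 11.75 log2 CPM with isotype, against 7.75, 7.83 and 7.95 log2 CPM in MC38 alone. Its log2 fold of 0.01 ± 0.09 has an interval of −0.19 to 0.22. Birc3, an inhibitor of cell death downstream of TNF receptors, was at 4.58, 4.78 and 4.73 log2 CPM with anti-PD1, against 4.28, 4.13 and 4.24 log2 CPM with isotype. Here the groups did not overlap (0.48 ± 0.11, unadjusted p = 0.00214, limma adjusted p = 0.819). Ccl2, the monocyte chemokine, was at 11.87, 11.87 and 11.91 log2 CPM with anti-PD1, against 11.70, 11.37 and 11.37 log2 CPM with isotype (0.40 ± 0.12). Lif, a cytokine that signals through STAT3, was at 5.12, 5.32 and 5.58 log2 CPM with anti-PD1, against 4.94, 4.46 and 4.66 log2 CPM with isotype (0.65 ± 0.16). Both of these also stood apart without passing adjustment.

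Of the 30 NF-kB targets tested 20 were above and 10 below 0, with a median of 0.05. At an unadjusted p under 0.05, 5 were higher (Lif, Birc3, Tnfaip3, Csf1 and Sod2) and 1 lower, the adhesion molecule gene Vcam1 (−0.25), beside 3.42% and 2.41% of all genes. Tnfaip3, which encodes the NF-kB brake A20, stood at 0.53 ± 0.23 from levels of 1.86, 2.48 and 2.44 log2 CPM with anti-PD1 and 1.71, 1.77 and 1.71 log2 CPM with isotype. The count of 5 was 2 without the second isotype library, 2 without the second anti-PD1 library, 3 without the first anti-PD1 or the third isotype library, and 2 without both libraries of doubtful label. Of 8 chemokines tested 6 were above 0, with a median of 0.13, among them Cxcl1, the neutrophil chemokine, at 0.37 ± 0.19 with overlapping groups. Of 34 genes of the TNF and death receptor pathway 22 were above and 12 below 0, with a median of 0.04 and 3 higher at an unadjusted p under 0.05 (Fadd, Bid and Apaf1), beside 3.42% of all genes. That count was 0 without the third anti-PD1 or the second isotype library, 1 without the second anti-PD1 or the third isotype library, and 0 without both libraries of doubtful label. The death receptor gene Fas stood at 0.17 ± 0.15 and the caspase gene Casp8 at −0.13 ± 0.19, both with overlapping groups. The TNF receptor gene Tnfrsf1a stood at 0.10 ± 0.08, and its groups did not overlap. Gsdmd, the pore protein of pyroptosis, was at 3.49, 3.49 and 3.32 log2 CPM with anti-PD1, against 3.89, 3.78 and 3.73 log2 CPM with isotype (−0.37 ± 0.13, unadjusted p = 0.0191, limma adjusted p = 0.820).

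**Figure D3:**
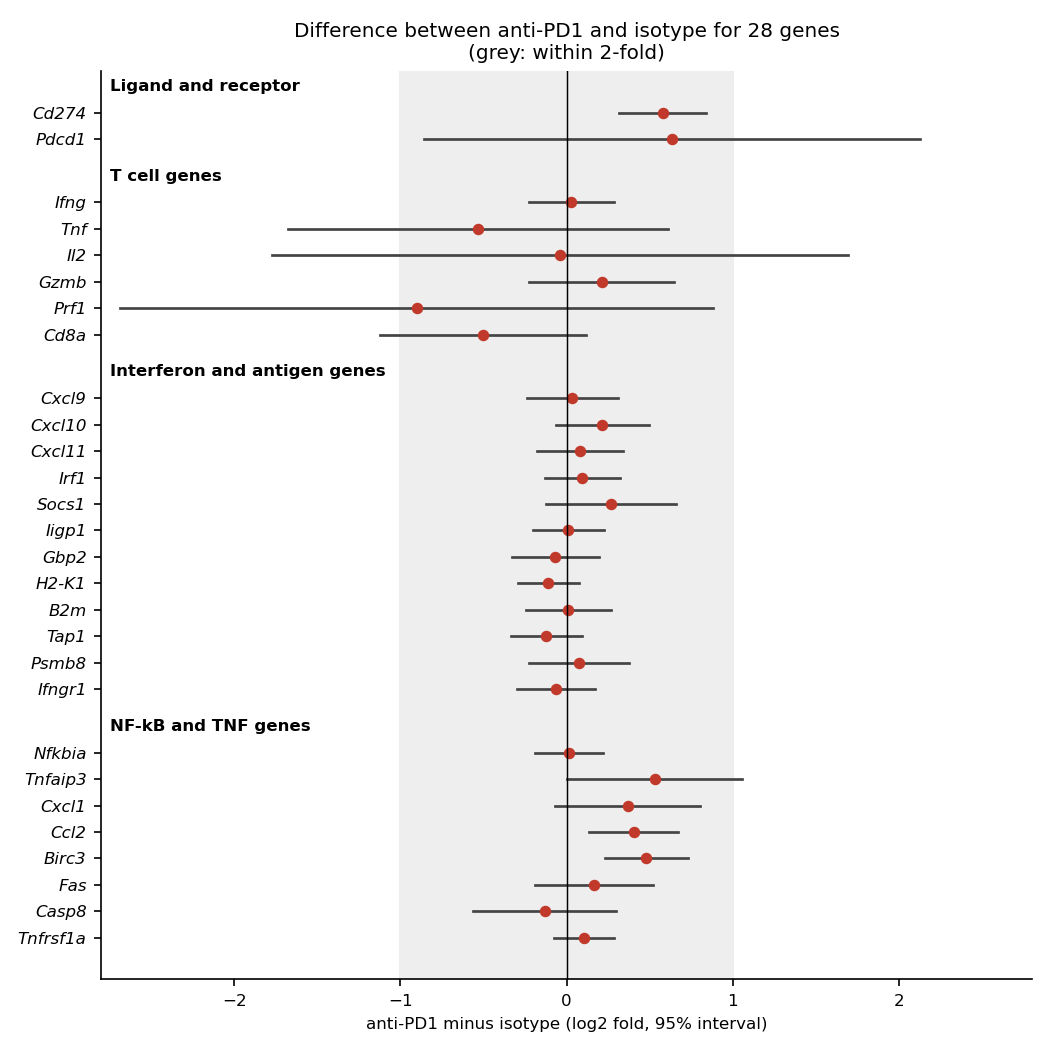
Difference between anti-PD1 and isotype (log2 fold, x axis) for 28 genes of the PD1, T cell, interferon and NF-kB groups, points with 95% confidence intervals from limma; the grey band marks 2-fold either way. Positive values are higher with anti-PD1; Cd274, Birc3, Ccl2 and, narrowly, Tnfaip3 have intervals above 0, and Pdcd1, Tnf, Il2, Prf1, Cd8a and Tnfaip3 have intervals that leave the band.

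Cells of the same line given cytokines without T cells, compared with untreated cells, supplied lists of target genes from other libraries. These groups held fewer libraries each than those of the co-culture. In vitro, 33 of 12720 genes were higher with TNF (0.259%), 45 with IFNG (0.354%) and 607 with TNF + IFNG (4.77%), at an adjusted p under 0.05. Between the antibodies in co-culture, the 33 TNF genes had a median log2 fold of 0.01 and the 45 IFNG genes one of −0.06, with 14 above and 31 below 0. Of the 593 TNF + IFNG genes tested, 190 were above and 403 (68.0%) below 0, with a median of −0.07, beside 52.3% below 0 among all genes. At an unadjusted p under 0.05, 15 of them were higher and 34 lower with anti-PD1, beside 3.42% and 2.41% of all genes, and 17 and 56 did not overlap in these directions, beside 6.23% and 5.9%. The 15 and 34 became 16 and 16 with no intensity trend, 12 and 10 with all 9 libraries fitted together, and 13 and 22 with the replicate number as a block. In these settings the share of the list that was lower was 2.70%, 1.69% and 3.71%. Among all genes it was 2.62%, 0.831% and 1.81%. The count of 34 ran from 17 to 40 without any 1 library, with 17 without the third anti-PD1 library, 22 without the second isotype library and 20 without the third isotype library. Without both libraries of doubtful label it was 21, and the share below 0 was 60.7%. Counts over all genes also moved between settings, so these counts alone do not show how the list stood beside all genes.

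In these libraries, labelled MC38, no T cell gene passed adjustment between the antibodies. Ifng was at 6.48, 6.49 and 6.54 log2 CPM with anti-PD1 and 6.27, 6.51 and 6.66 log2 CPM with isotype, so that its log2 fold of 0.03 ± 0.11 has an interval of −0.23 to 0.28. In MC38 alone it stood at −1.63, −2.66 and 1.85 log2 CPM, the last in the library that carried T cell RNA. Gzmb, the killing protease granzyme B, was at 4.57, 4.91 and 5.14 log2 CPM with anti-PD1 and 4.84, 4.32 and 4.84 log2 CPM with isotype (0.21 ± 0.19).

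Other T cell genes were measured with less precision. Prf1, the gene of the pore protein perforin, Tnf and Il2 lay low or scattered between libraries, and their intervals were −2.69 to 0.88, −1.67 to 0.61 and −1.77 to 1.69. Cd8a, which marks CD8 T cells, was at 1.92, 1.19 and 2.04 log2 CPM with anti-PD1, against 2.11, 2.41 and 2.13 log2 CPM with isotype (−0.50 ± 0.27). The groups did not overlap, and the log2 fold was −0.24 without the second anti-PD1 library. Ctla4, another inhibitory receptor, was at 3.34, 3.93 and 4.02 log2 CPM with anti-PD1 and 3.30, 2.66 and 3.35 log2 CPM with isotype (0.66 ± 0.24). The chemokine gene Ccl4 stood at 0.35 ± 0.13, and both groups of libraries overlapped for these last genes. Of 24 T cell identity genes 7 were above and 17 below 0, with a median of −0.13, beside 47.7% above and 52.3% below among all genes. At an unadjusted p under 0.05, 1 was lower, the leukocyte phosphatase gene Ptprc (−0.67), beside 2.41% of all genes. Of 16 activation and inhibitory receptor genes 10 were above and 6 below 0, with a median of 0.02.

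By lowest p among genes without overlap and with a mean of at least 3 log2 CPM, several protein-coding genes were higher with anti-PD1, none past adjustment. Pim1, a survival kinase gene induced by STAT factors, was at 5.33, 5.22 and 5.38 log2 CPM with anti-PD1, against 4.75, 4.70 and 4.72 log2 CPM with isotype and 2.41, 2.36 and 2.62 log2 CPM in MC38 alone. Its log2 fold was 0.58 ± 0.10 (limma adjusted p = 0.770), and ran from 0.54 to 0.63 over the alternative settings. Slc20a2, a phosphate transporter gene, was at 3.76, 3.56 and 3.74 log2 CPM with anti-PD1, against 3.03, 2.81 and 2.89 log2 CPM with isotype (0.78 ± 0.14). Vegfc, a growth factor of lymphatic vessels, was at 3.78, 4.09 and 3.77 log2 CPM with anti-PD1, against 3.23, 3.05 and 3.07 log2 CPM with isotype (0.76 ± 0.14). The same rule gave Snrpf (0.64), a splicing protein, Cmtm3 (0.66), Acat1 (0.45), a mitochondrial thiolase, Tbpl1 (0.47), a relative of the TATA-binding protein, and Txn1 (0.47), thioredoxin. Snrpf and Txn1 share stretches of at least 95% identity with another annotated sequence, so reads may have been split.

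Among genes lower with anti-PD1 by the same rule, Palld, an actin-binding protein, was at 3.45, 3.41 and 3.18 log2 CPM with anti-PD1, against 3.99, 3.82 and 3.91 log2 CPM with isotype (−0.56 ± 0.13). Hspa8, a constitutive chaperone of the HSP70 family, was at 9.81, 9.70 and 9.67 log2 CPM with anti-PD1, against 10.12, 10.17 and 9.99 log2 CPM with isotype (−0.37 ± 0.09). It has near-identical copies, and its count is uncertain for that reason. Fnip2, a partner of folliculin, stood at −0.37 ± 0.09 and Gemin5, part of the SMN complex, at −0.41 ± 0.11. Nanp, a sialic acid phosphatase gene, stood at −0.60 ± 0.16 and the pseudogene Gm6741 at −0.62 ± 0.16. The annotated sequence of Gm6741 is identical to a stretch that covers 53.6% of Nanp. These may therefore be 1 measurement rather than separate ones, which was not tested.

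The largest differences belonged to pseudogenes and their near-identical relatives. Gm29257, a processed pseudogene on chromosome 1, was at 6.91, 7.05 and 8.85 log2 CPM with anti-PD1, against 3.13, 2.96 and 3.05 log2 CPM with isotype, and it had the lowest p (log2 fold 4.56 ± 0.44, limma adjusted p = 0.057). In MC38 alone it stood at 9.16, 2.44 and 4.33 log2 CPM, a wider range than between the antibody groups. Gm6395, which is 99.1% identical to the chaperone gene Dnajb6, was at 5.92, 5.99 and 5.56 log2 CPM with anti-PD1, against 6.90, 7.30 and 7.40 log2 CPM with isotype (−1.38 ± 0.16, limma adjusted p = 0.115). Dnajb6 stood at 0.04 ± 0.09 and the summed pair at −0.24. Amd2, a coding copy 99.6% identical to the polyamine synthesis gene Amd1, was at 5.01, 5.15 and 5.14 log2 CPM with anti-PD1, against 3.57, 3.69 and 4.30 log2 CPM with isotype (1.25 ± 0.19). Amd1 stood at 0.03 ± 0.10 and the summed pair at 0.12, and Amd2 in MC38 alone ran from 3.18 to 8.08 log2 CPM. How reads shared by such copies were assigned is not said in the sources used here, and its part in these differences was not tested.

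Of the 21 genes with a mean of at least 3 log2 CPM, a difference of at least 2-fold and no overlap, 12 are annotated pseudogenes, and 16 were higher with anti-PD1. Pseudogenes make up 8.50% of the 12061 tested genes that the annotation matched. Protein-coding genes among the 21 were Amd2, Gm11273 and Tap2, and Cyr61, a matricellular protein induced by growth signals, was not matched by name. Cyr61 was at 7.48, 7.79 and 8.26 log2 CPM with anti-PD1, against 7.34, 5.82 and 6.39 log2 CPM with isotype and 3.74, 3.23 and 3.72 log2 CPM in MC38 alone. Its log2 fold of 1.33 ± 0.35 was 0.98 without the second isotype library, 1.74 without the first isotype library and 0.77 without both libraries of doubtful label, and its isotype libraries spread over more than 1.5 log2 units.

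**Figure D4:**
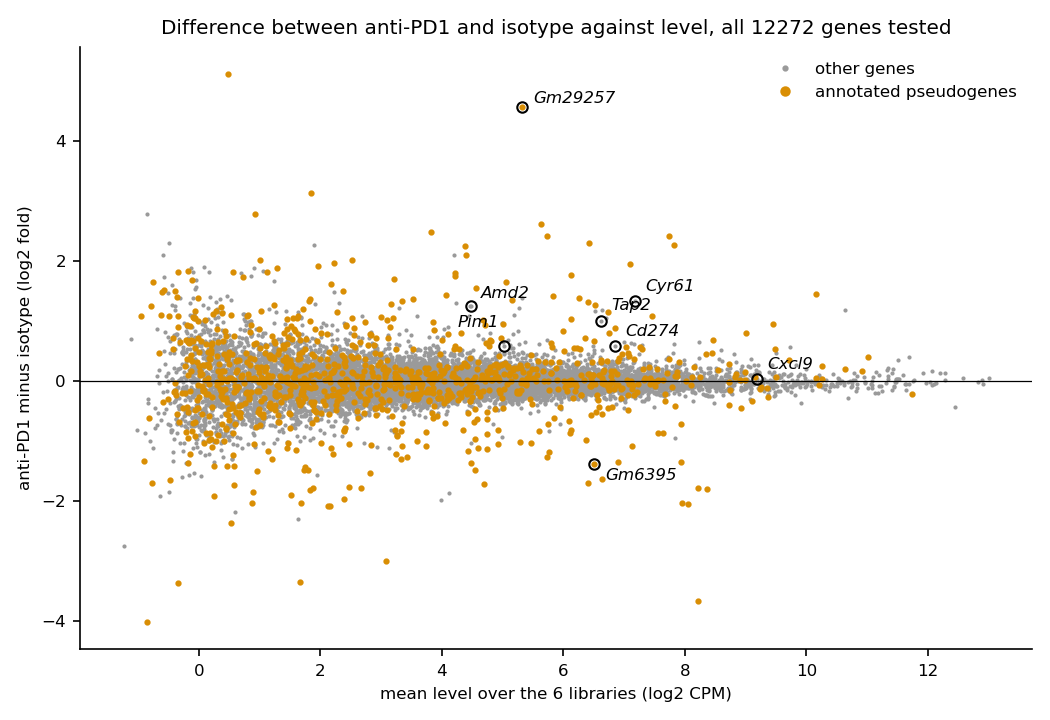
Difference between anti-PD1 and isotype (log2 fold, y axis, positive is higher with anti-PD1) against the mean level over the 6 libraries (log2 CPM, x axis) for the 12272 genes tested, 1 point each, with annotated pseudogenes in orange and 8 genes circled and named. The points furthest from 0 at high levels are mostly pseudogenes, and Cd274 and Pim1 lie at 0.58.

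Among the lists of stress and early response genes the balance around 0 differed, and no member passed adjustment. Of 25 ATF4 and unfolded protein response genes 18 were above and 7 below 0, with a median of 0.07. At an unadjusted p under 0.05, 5 were higher and 0 lower, namely Xbp1, Ppp1r15a, Trib3, Cebpb and Edem1 (3.42% and 2.41% among all genes), and 3 were higher without the third isotype library and without both libraries of doubtful label. Xbp1, a transcription factor of that response, was at 5.31, 5.59 and 5.45 log2 CPM with anti-PD1, against 5.03, 4.64 and 5.02 log2 CPM with isotype (0.55 ± 0.14). Of 23 immediate early genes 17 were above and 6 below 0, with a median of 0.14. Atf3 (1.05) and Myc (0.44 ± 0.15) were higher and Klf2 (−0.33) lower at an unadjusted p under 0.05, beside 3.42% and 2.41% of all genes. The 2 higher became 4 without the second anti-PD1 library, 1 without the third anti-PD1 or the third isotype library, and 2 without both libraries of doubtful label. Myc, the growth regulator, was at 3.86, 3.93 and 4.28 log2 CPM with anti-PD1, against 3.63, 3.65 and 3.47 log2 CPM with isotype. Of 17 heat shock and chaperone genes 5 were above and 12 below 0, with a median of −0.06. Hspa9 (0.21) was higher and Hspa8 and Hsph1 (−0.34) were lower at an unadjusted p under 0.05, beside 3.42% and 2.41% of all genes. Without both libraries of doubtful label 10 of the 17 were above and 7 below 0.

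The medians of the remaining lists stayed close to that of all genes tested, while the balance around 0 differed in some. Among all genes tested 47.7% were above and 52.3% below 0. Of 17 oxidative stress and metallothionein genes 14 were above and 3 below 0, with a median of 0.06. Of 20 p53 targets 13 were above and 7 below 0, with a median of 0.13. Medians of the lists with at least 4 genes tested ran from −0.14 for 31 extracellular matrix and adhesion genes, of which 9 were above and 22 below 0, to 0.14 for 28 mitochondrially encoded genes. The natural killer cell list had 1 gene tested, Klrk1, at −0.66. Cell cycle genes had a median of −0.06 (14 above and 24 below 0) and cholesterol synthesis genes also one of −0.06 (6 above and 19 below 0). The proliferation marker Mki67 stood at −0.44 ± 0.24, at −0.70 without the first anti-PD1 library, −0.21 without the third anti-PD1 library and −0.07 without both libraries of doubtful label. The 29 hypoxia and glycolysis genes had a median of 0.07, and Pgam1, the highest of those with a mean of at least 3 log2 CPM at 0.57, stood at −0.34 without the third isotype library. Cytosolic ribosomal proteins (84 genes, −0.01), nuclear respiratory chain genes (78 genes, 0.01), mitochondrial ribosomal proteins (77 genes, 0.03) and constitutive proteasome subunits (34 genes, −0.02) lay within 0.03 of 0. No list had a member past an adjusted p of 0.05 in limma.

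**Figure D5:**
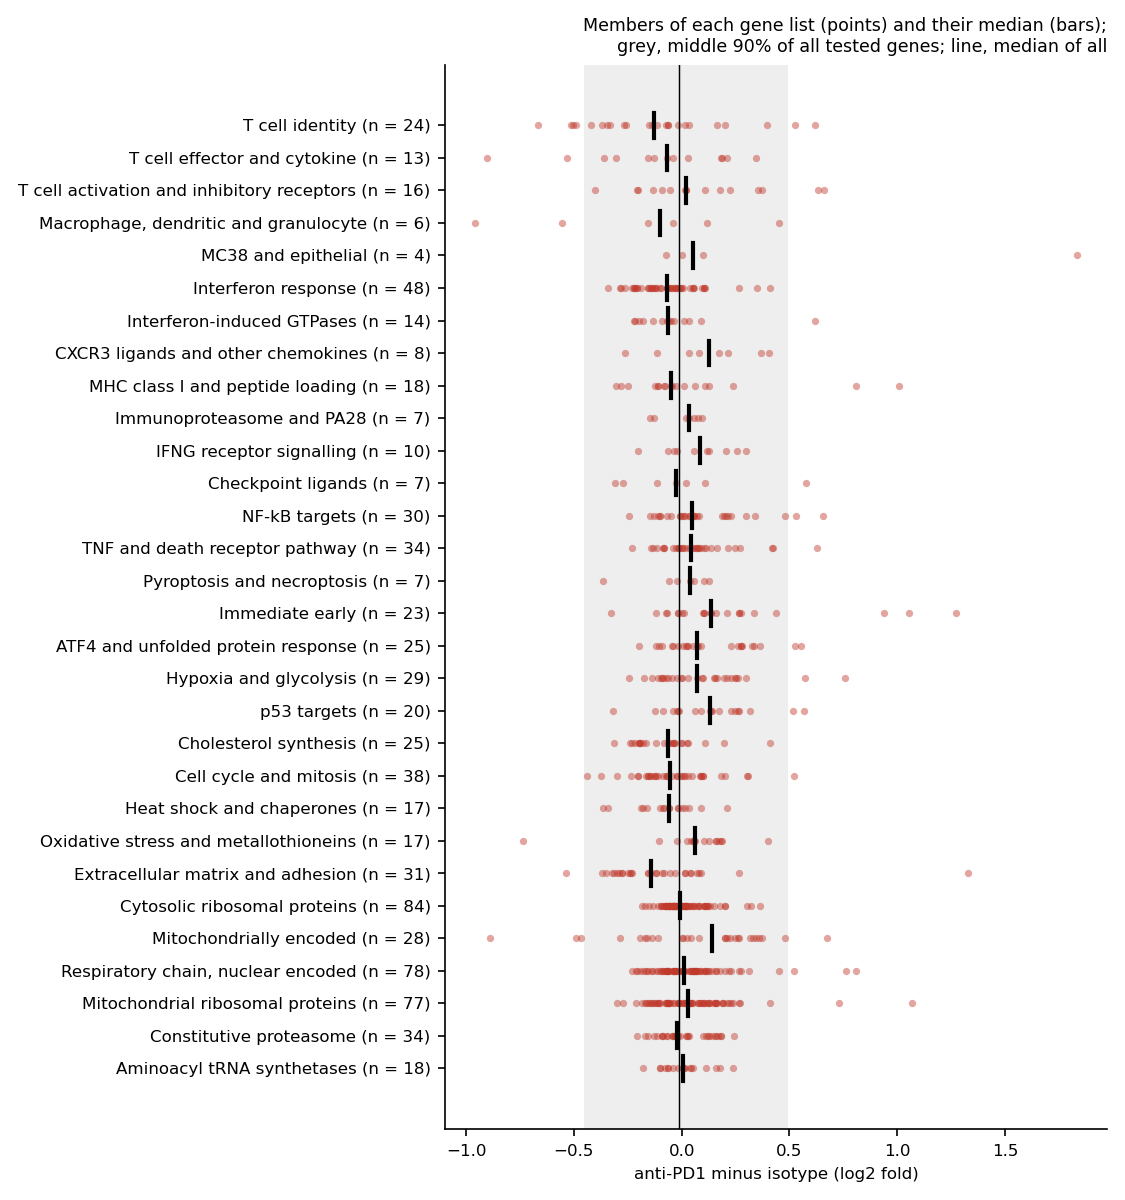
Difference between anti-PD1 and isotype (log2 fold, x axis, positive is higher with anti-PD1) for the tested members of each gene list, 1 point per gene, with black bars for list medians, a line for the median of all genes and a grey band for the middle 90% of all genes tested. The medians of the lists drawn, those with at least 4 genes tested, lie inside the band, between −0.14 and 0.14.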

How the data were processed

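RNA of MC38 co-cultures was made into QuantSeq 3′ libraries, per the labels' protocols. The builds GRCm38 and mm10 and the tools HISAT2, Subread with featureCounts, cutadapt 1.7, limma and FastQC are named, without settings or strand, per the submitters' processing notes. The deposited values are log2 CPM, which the authors had quantile-normalized, as read from the values. Depth was estimated from their tied steps, and raw counts were not used here.

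The 6 libraries were fitted alone with limma 3.58.1 in R 4.3.3 (intensity trend, empirical Bayes, 4 residual and 4.38 prior degrees of freedom). Genes at a log2 value of at least 0 in 3 libraries were tested (12272 of 12948), 2-sided, with Benjamini-Hochberg adjustment at 0.05. The fit was run on simulated data with planted shifts, where the mean estimates lay close to those shifts. This checked the estimates and not the calls. Errors are limma's SE. Sequences were compared with BLAST 2.17.0 on GENCODE transcripts, and promoters are RefSeq's on GRCm38.p6.

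Named genes were the 12 lowest p in each direction among non-overlapping genes with a mean of at least 3, a fixed set, and the highest and lowest member of each list. Cd47, Fadd, Apaf1, H2-T22, H2-M3, Atf3, Ptprc, Csf1, Sod2 and the ATF4 genes were named after their values were seen. Genes and lists were chosen with earlier results of these data known. Alternatives covered filters, scale, moderation, weights, centring, a replicate block, all 9 libraries and each library left out. Results for 2 genes are not reported here.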

Additional observations from a re-analysis of the deposited data

Results flagged for a closer look

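The third library of MC38 alone carried T cell transcripts although it is labelled as tumour cells only. The summed level of 24 T cell identity genes was 82.9 CPM in it, against 11.0 and 14.5 CPM in the other libraries of MC38 alone, and 4 of the 24 genes lay at its lowest 3 count steps, against 20 and 19 in the others. This library entered the baseline levels and the co-culture comparison, and did not enter the fit between anti-PD1 and isotype. Its implied depth, 3730000 reads, was also the lowest of the 9. The origin of these transcripts was not tested.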

How the results depend on the processing

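The counts of 0 genes higher and 0 lower were repeated under 16 alternatives. No filter, a stricter filter, log2(CPM + 1), no intensity trend, all 9 libraries fitted together, centred libraries and leaving out the first isotype library each gave 0 and 0. Robust moderation gave 0 higher and 1 lower (Gm6395), and library weights 1 higher and 0 lower (Gm29257). Leaving out 1 library at a time gave 0 to 5 higher and 0 to 2 lower, the 5 without the third anti-PD1 library. Without both libraries of doubtful label, an alternative added after seeing the data, 8 were higher and 5 lower. Of the 21 genes called in any alternative 18 are annotated pseudogenes, and Amd2, Gm10273 and Phf11a are protein-coding. The fit with the replicate number as a replicate block called 2 higher (Gm10273 and Gm29257) and 0 lower. Same-numbered libraries did not deviate together (correlations −0.11, 0.03 and 0.08 over 8115 genes). A weak correlation cannot show whether libraries of the same number were set up together. At an unadjusted p under 0.05 the counts of 420 higher and 296 lower became 229 and 102 with all 9 libraries fitted together. The cause of these shifts was not tested. Of 480 list medians 9 moved by more than 1 SD between libraries, and of 1708 values for named genes 72 moved by more than 1 SE. With depths of 5760000 to 10960000 reads, genes near the lowest steps, such as Pdcd1, Tnf and Prf1, were not measured well enough to exclude differences of 2-fold.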
